A study of Homo sapiens with 24 samples.

Results

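The genes followed here make the machinery that copies DNA, together with E2F1 and other genes of the E2F programme, in HepG2 cells, an established human hepatoma line. The list names 50 genes by function, from origin licensing to nucleotide supply and chromatin assembly, and their rows were taken by gene symbol from a table of 18915 genes. A row was found for 49 of the 50 genes, and all 49 passed the filter on low counts, among 12685 genes that did. *UHRF1* was not analysed here. The cells had been treated for 10 h in 6 ways, with 4 replicate libraries each, described by the labels as biological replicates: with DMSO, with 50 nM ISRIB, with 20 µM nelfinavir, with 50 nM bortezomib, or with bortezomib at that dose plus either nelfinavir (20 µM) or ISRIB (50 nM). Bortezomib blocks the proteasome. Nelfinavir, an HIV protease drug, acts in this system by hindering the dephosphorylation of the translation initiation factor eIF2α, and ISRIB is a small molecule that stabilises eIF2B and so lets translation initiation go on although eIF2α is phosphorylated. The comparisons therefore ask how the replication genes moved when each drug was given alone and when nelfinavir or ISRIB was added to bortezomib. The authors report that bortezomib by itself also raised ATF4, the transcription factor that the eIF2α pathway induces. All libraries come from this 1 line.

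A chromosome is prepared for copying in steps. The origin recognition complex, CDC6 and CDT1 load the ring-shaped MCM2-7 helicase onto DNA before S phase, and geminin (*GMNN*) binds CDT1 and stops further loading. CDC45 and the GINS complex then activate the helicase, polymerase alpha with primase starts the new strands, the RFC complex loads the PCNA clamp, and polymerases delta and epsilon extend them. Many of these genes are transcribed around the entry into S phase by E2F transcription factors, which bind a short GC-rich DNA word and are held in check by the retinoblastoma family until cyclin-dependent kinases release them. In bulk RNA, fewer cells in S phase and less of these mRNAs per cell cannot be told apart.

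The DNA words that E2F factors are known to bind were looked for in the promoters, because they are the sequence feature that these genes are best known to share. RefSeq promoter windows, from 250 bases before to 50 bases after the gene start on GRCh38.p14, were at hand for 42 of the 49 genes, and *GINS4*, *MCM4*, *MCM5*, *POLD3*, *RPA2*, *RPA3* and *FAM111B* had no entry. The words TTTCCCGC, TTTGGCGC, TTTCGCGC and TTTGCCGC were searched on both strands, and at least 1 of them stood in 21 of the 42 promoters (50.0%), against 3.33% of 27305 promoters in the table and 5.45% of 8946 promoters of genes tested for expression. The 21 promoters held 29 words, 6 promoters held more than 1, and 18 of the 29 words lay within 100 bases before the start. A match is a description of the letters and says nothing about binding in these cells. A single window per gene was searched, and other start sites of a gene were not looked at. The median GC content was 64.8% in the 42 promoters and 65.3% in those of the genes tested. Sequences from −190 to 30 around the start are shown for promoters with overlapping words (*MCM6*, *MCM2*), for *CDC6*, whose p was the lowest of the list when nelfinavir was combined with bortezomib, for *HELLS* and *E2F1* itself, which hold words on both strands, and for *DUT*, which fell with bortezomib and has none of the words in its window. They are written 5′ to 3′ on the strand of the gene, and capitals mark the E2F words or the other-strand copies of them. Overlapping words appear as 1 run of capitals.
*MCM6* promoter, chr2:135876414-135876633, minus strand: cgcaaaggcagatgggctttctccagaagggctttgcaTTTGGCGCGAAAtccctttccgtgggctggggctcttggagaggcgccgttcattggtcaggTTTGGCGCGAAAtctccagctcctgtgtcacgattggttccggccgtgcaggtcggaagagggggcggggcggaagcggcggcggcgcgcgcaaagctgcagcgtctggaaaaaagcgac
*MCM2* promoter, chr3:127598221-127598440, plus strand: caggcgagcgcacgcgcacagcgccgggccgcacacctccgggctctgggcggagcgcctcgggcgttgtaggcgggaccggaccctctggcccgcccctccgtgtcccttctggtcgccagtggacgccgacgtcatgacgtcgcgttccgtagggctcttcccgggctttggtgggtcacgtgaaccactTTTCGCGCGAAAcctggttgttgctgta
*CDC6* promoter, chr17:40287689-40287908, plus strand: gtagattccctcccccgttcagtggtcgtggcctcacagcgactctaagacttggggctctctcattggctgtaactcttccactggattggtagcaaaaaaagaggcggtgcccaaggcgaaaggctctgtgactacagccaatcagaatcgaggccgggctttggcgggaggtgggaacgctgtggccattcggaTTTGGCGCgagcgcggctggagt
*HELLS* promoter, chr10:94545598-94545817, plus strand: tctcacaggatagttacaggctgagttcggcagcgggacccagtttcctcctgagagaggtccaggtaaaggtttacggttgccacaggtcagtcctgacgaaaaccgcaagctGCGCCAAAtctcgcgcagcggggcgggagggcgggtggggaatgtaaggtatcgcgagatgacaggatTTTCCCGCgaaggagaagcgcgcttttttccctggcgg
*E2F1* promoter, chr20:33686356-33686575, minus strand: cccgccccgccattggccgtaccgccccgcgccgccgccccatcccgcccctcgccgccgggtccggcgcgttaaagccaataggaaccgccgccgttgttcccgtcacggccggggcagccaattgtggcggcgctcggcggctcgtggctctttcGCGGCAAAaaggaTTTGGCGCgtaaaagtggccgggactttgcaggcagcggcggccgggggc
*DUT* promoter, chr15:48330905-48331124, plus strand: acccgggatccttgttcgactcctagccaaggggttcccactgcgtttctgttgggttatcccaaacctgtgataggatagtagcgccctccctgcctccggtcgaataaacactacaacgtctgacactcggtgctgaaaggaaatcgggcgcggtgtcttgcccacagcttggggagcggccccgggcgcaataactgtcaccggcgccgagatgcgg

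Library totals ran from 5154533 to 6943164 counts, and levels are given as CPM, the counts of a gene relative to the size of its library after scaling by TMM factors (the trimmed mean method of edgeR). The libraries read the 3′ end of transcripts, and the level of a gene is compared here between libraries and not with that of other genes. Mitochondrially encoded transcripts took on average 21.5% of the counts in DMSO and 20.5% in nelfinavir, but 33.8% with bortezomib, 27.2% when nelfinavir was added to it and 36.1% when ISRIB was added (n = 4 each), and their part in the results was not tested beyond a fit without those genes. The summed level of 10 hepatocyte markers lay between 7598 and 17247 CPM in every library and was lowest in bortezomib with nelfinavir (7598 to 9481 CPM, against 15410 to 16744 CPM in DMSO). Of 5 leukocyte markers, 3 had rows, with a summed level of 334 to 416 CPM in DMSO and 73.5 to 125 CPM in bortezomib that was nearly all *LYZ*. Endothelial markers (1 of 4 with a row) reached at most 0.194 CPM and fibroblast markers (3 of 5) at most 1.26 CPM. The part of these marker levels in the results was not tested.

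Summed over the 49 genes, the level in TMM-scaled CPM was highest in DMSO and ISRIB, lowest in nelfinavir alone and in between in the 3 groups with bortezomib, an order that did not hold among the 4 lower groups as a share of all counts. The sum was 3501 ± 51.7 CPM in DMSO, 3553 ± 31.3 CPM with ISRIB, 1713 ± 32.5 CPM with nelfinavir and 2443 ± 63.3 CPM with bortezomib (SD, n = 4). The co-treatments held 2437 ± 77.2 CPM (nelfinavir added) and 2486 ± 65.2 CPM (ISRIB added), and their libraries overlapped those of bortezomib alone. The lowest DMSO library (3434 CPM) lay above the highest bortezomib library (2527 CPM), and the highest nelfinavir library (1759 CPM) lay below every bortezomib library (lowest 2380 CPM). As a share of all counts the genes took 0.423% in DMSO, 0.203% in nelfinavir, 0.209% in bortezomib, 0.203% with nelfinavir added to it and 0.204% with ISRIB added, and the libraries of these 4 treated groups overlapped. As a share of the counts outside the mitochondrial genome the values were 0.539%, 0.256%, 0.316%, 0.279% and 0.319% in the same order. Nelfinavir was the group with the lowest mean level for 35 of the 49 genes, bortezomib with nelfinavir for 9, bortezomib for 4 and bortezomib with ISRIB for 1.

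**Figure D1:**
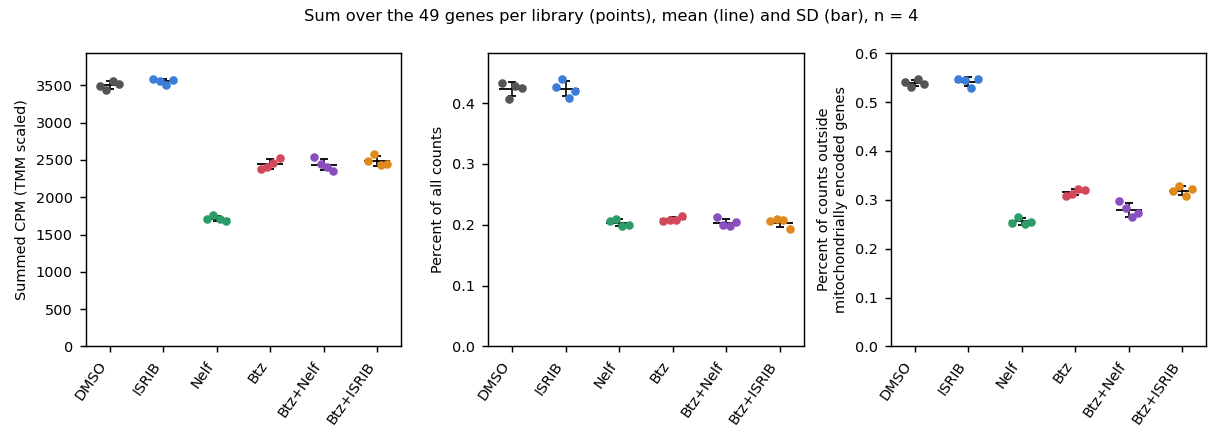
Sum over the 49 genes in each library, as TMM-scaled CPM and as a share of counts, by treatment, with points for libraries, a line for the mean and a bar for the SD (n = 4). Nelfinavir libraries sit near 1713 CPM and bortezomib libraries near 2443 CPM, whereas both groups are near 0.2% as a share of all counts.

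**Figure D2:**
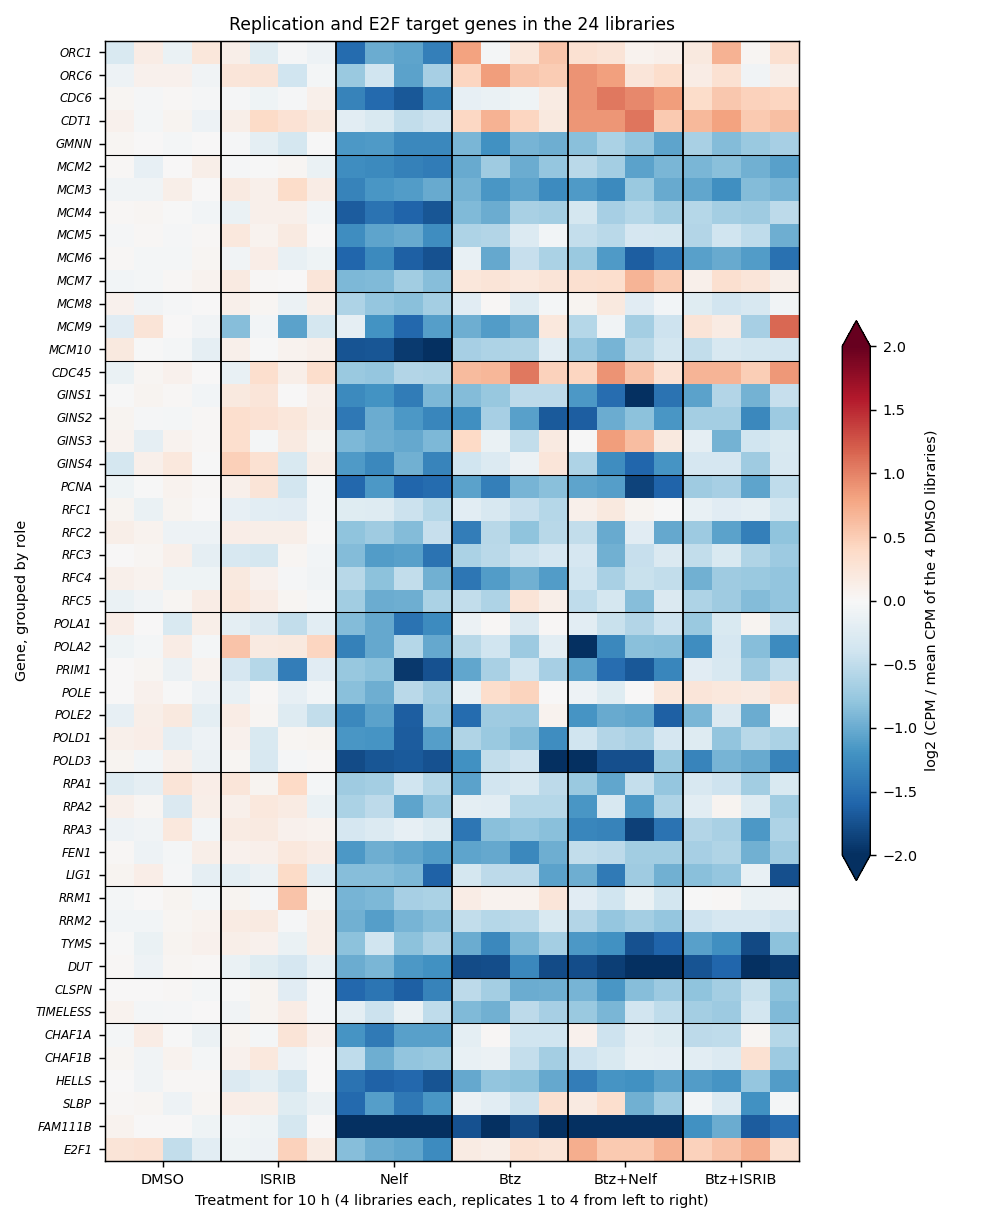
Level of each of the 49 genes (rows, by role) in each of the 24 libraries (columns), as log2 of its CPM over the mean of the 4 DMSO libraries. The nelfinavir columns are low for nearly every gene, and in the 3 groups with bortezomib genes of the same role differ from each other, for example *CDC6* and *GMNN*.

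With nelfinavir alone, the mRNAs of nearly the whole replication machinery fell. Of the 49 genes, 46 were called lower than in DMSO and 0 higher, against 8.84% of all genes called lower and 10.4% called higher. A call here is an adjusted p under 0.05, from the quasi-likelihood test of edgeR and Benjamini-Hochberg adjustment over the 12685 genes tested, and every adjusted p given comes from that test. The 0 is also the number at an unadjusted p under 0.05 and with DESeq2, as all 49 log2 fold changes were below 0. Their median was −1.07, while the median of all genes tested was 0.01. Falls of more than 2-fold were seen in 28 genes. Here and below, the share of all genes past 2-fold was not counted. In 48 of the 49 genes the 4 nelfinavir and 4 DMSO libraries did not overlap, against 29.6% of all genes. The genes were also prominent among everything that fell, where they made up 11 of the first 25, 17 of the first 50 and 25 of the first 100 when ordered by p. A change of scaling mattered little here, since 46 genes were called lower with library totals alone as well.

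All 5 origin licensing genes fell with nelfinavir, as did all 6 MCM2-7 genes. *CDC6* (ENSG00000094804, chr17:38444131-38460909 of GRCh37), which encodes the loader that brings the MCM ring to the origin, stood at 69.5, 66.6, 68.7 and 66.9 CPM in the 4 DMSO libraries and at 27, 23.1, 21 and 27.5 CPM with nelfinavir. The groups were far apart, and the log2 fold change was −1.46 (SE 0.0991, adjusted p = 1.68e-13). *GMNN* fell by 1.21 and *ORC1* by 1.22 on the log2 scale. *CDT1* (ENSG00000167513, chr16:88870197-88875666), the partner of CDC6 in loading, moved least in its group, from 35.6, 32.7, 35.1 and 31.3 CPM to 29.0, 27.2, 24 and 25.1 CPM. These groups did not overlap, but the change of −0.35 (adjusted p = 0.0356) was no longer called when DMSO replicate 1, 2 or 3 or nelfinavir replicate 2, 3 or 4 was left out (adjusted p up to 0.119).

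Downstream of licensing, *MCM10*, which helps the helicase to start, fell from 51.4, 44.9, 43.8 and 39.8 CPM to 13.6, 13.8, 11.9 and 10.6 CPM (log2 fold change −1.84, SE 0.132, adjusted p = 5.28e-13). *MCM8* fell by 0.73 on the log2 scale, and *MCM9*, which acts with MCM8 in recombination repair, had a change of −0.90 that was not called (adjusted p = 0.0674), with 601 counts over all 24 libraries the fewest of the 49 genes. *CDC45* and the 4 GINS genes all fell, by 0.68 to 1.21 on the log2 scale. The 6 clamp and clamp loader genes fell too, from *RFC1* (−0.37) to the clamp itself, *PCNA* (−1.45). *PCNA* stood at 208, 218, 232 and 224 CPM in DMSO and at 73.9, 99.9, 73.8 and 76.1 CPM with nelfinavir. All 7 polymerase and primase genes were called lower, with changes from −0.75 for *POLE*, the catalytic subunit of polymerase epsilon, to −1.73 for *POLD3*, a subunit of polymerase delta.

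The other exceptions with nelfinavir were fork proteins. *RPA3* (ENSG00000106399, chr7:7676149-7758238), the smallest subunit of the single-strand binding protein RPA, stood at 79.5, 81.0, 98.1 and 82.2 CPM in DMSO and at 67.3, 70.3, 76.1 and 71.3 CPM with nelfinavir. The groups did not overlap, yet the change of −0.26 was not called (adjusted p = 0.155). *TIMELESS*, which stabilises stalled forks, likewise had a change of −0.31 that missed the threshold (adjusted p = 0.0759), whereas *CLSPN*, which encodes the checkpoint adaptor claspin, fell by 1.5 on the log2 scale. *RPA1* and *RPA2* fell by 0.58 and 0.74, *FEN1*, the nuclease that trims Okazaki fragments, by 1.07 and *LIG1*, the ligase that seals them, by 1.02. The 4 nucleotide supply genes fell by 0.66 (*TYMS*) to 1.06 (*DUT*).

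The largest fall of the 49 genes with nelfinavir was in *FAM111B* (ENSG00000189057, chr11:58874658-58894885), which encodes a trypsin-like protease and dropped to 12.7% of its DMSO level. Its values were 94.6, 91.0, 91.3 and 85.4 CPM in DMSO and 11.6, 12.8, 11.9 and 9.74 CPM with nelfinavir. *HELLS*, a chromatin remodeller, fell by 1.59, *SLBP*, which binds the stem-loop of histone mRNAs, by 1.30, *CHAF1A*, the large subunit of the histone chaperone CAF-1, by 1.19 and *E2F1* by 1.03 on the log2 scale. The 21 genes with an E2F word in the promoter window had a median log2 fold change of −1.14 and the 21 without one of −0.90, over ranges that overlap almost completely (−1.59 to −0.35 and −1.84 to −0.31).

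With bortezomib alone, the response of the same genes was split. Of the 49 genes, 29 were called lower than in DMSO and 4 higher, against 25.8% of all genes called lower and 27.6% called higher in this comparison. The median log2 fold change was −0.54, with 0.00 for all genes tested, and 8 genes fell more than 2-fold. At a minimum change of 1.5-fold, 22 of the 49 were called lower and 2 higher, against 2531 and 2440 of all 12685 genes. The 2 groups of libraries did not overlap in 35 of the 49 genes, against 50.0% of all genes. Ordered by p, the first 100 genes on the lower side held 2 of the list (*DUT* and *FAM111B*) and the first 50 held 0. The scaling bears on these counts: with library totals alone the median of all genes moved to −0.50 and that of the 49 genes to −1.03, and 44 of them were called lower and 0 higher, against 49.4% and 11.7% of all genes.

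Among the genes that fell, *DUT* (ENSG00000128951, chr15:48623208-48635570), which encodes the enzyme that removes dUTP from the nucleotide pool, went from 167, 152, 169 and 167 CPM to 47.1, 47.7, 66.5 and 47.3 CPM. The groups lay far apart (−1.65, SE 0.121, adjusted p = 2.23e-13), and the window printed above holds no E2F word. *FAM111B* stood at 27.2, 14.9, 26 and 21.4 CPM with bortezomib (−2.02, SE 0.151, adjusted p = 3.16e-13). The other genes that fell more than 2-fold were *RFC4* (−1.15), *GINS2* (−1.11), *MCM3* (−1.10), *FEN1* (−1.08), *PCNA* (−1.04) and *GMNN* (−1.01), so that the 8 lay in 7 of the 10 role groups. *RPA3*, which did not pass the threshold with nelfinavir, stood at 31.4, 47.5, 49.6 and 47.8 CPM with bortezomib, below every DMSO library (log2 fold change −0.95, adjusted p = 1.76e-07).

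By role, the falls with bortezomib covered 5 of the 6 MCM2-7 genes, 5 of 6 clamp and clamp loader genes, 4 of 5 genes for RPA, FEN1 and LIG1, 3 of 4 nucleotide supply genes and both fork protection genes. They covered only 1 of the 5 licensing genes tested (*GMNN*), 2 of 5 genes for CDC45 and GINS, 4 of 7 polymerase and primase genes and 2 of 6 genes for chromatin and E2F. The call for *POLE2* (−0.62, adjusted p = 0.0471) was lost without DMSO replicate 1, 2 or 3 or bortezomib replicate 1, 2 or 3 (adjusted p up to 0.144), and that for *LIG1* (−0.59) without bortezomib replicate 4 (adjusted p = 0.0538).

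Under TMM scaling 4 genes (8.16%) were called higher with bortezomib, against 27.6% of all genes. With library totals alone 0 were, against 11.7% of all genes. *CDC45* rose from 16.7, 18.9, 19.5 and 18.5 CPM to 28.7, 29.3, 38.0 and 25.3 CPM (log2 fold change 0.72, SE 0.148, adjusted p = 0.000111), and with library totals alone its change was 0.22 and not called. *ORC6*, a subunit of the origin recognition complex, stood at 40.7, 46.3, 46.3 and 41.8 CPM in DMSO and at 59.0, 77.8, 64.4 and 62.5 CPM with bortezomib (0.59, adjusted p = 0.000986, and 0.09 with library totals alone). In both genes every bortezomib library lay above every DMSO library. *CDT1* stood at 44.9, 54.7, 45.2 and 38.5 CPM with bortezomib (0.45, adjusted p = 0.00219), but turned to −0.05 with library totals alone and was not called without bortezomib replicate 2 (adjusted p = 0.0566). The smallest of the 4 changes, that of *MCM7* (0.24, adjusted p = 0.0181), became −0.26 with library totals alone and was lost when any 1 of DMSO replicates 1 and 2 or of the 4 bortezomib replicates was left out (adjusted p up to 0.134). *CDC6* stood at 60.5, 61.9, 64.2 and 76.5 CPM with bortezomib, a range that overlaps that of DMSO, with a change of −0.05 (95% interval −0.23 to 0.14) that was −0.55 and called lower with library totals alone.

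**Figure D3:**
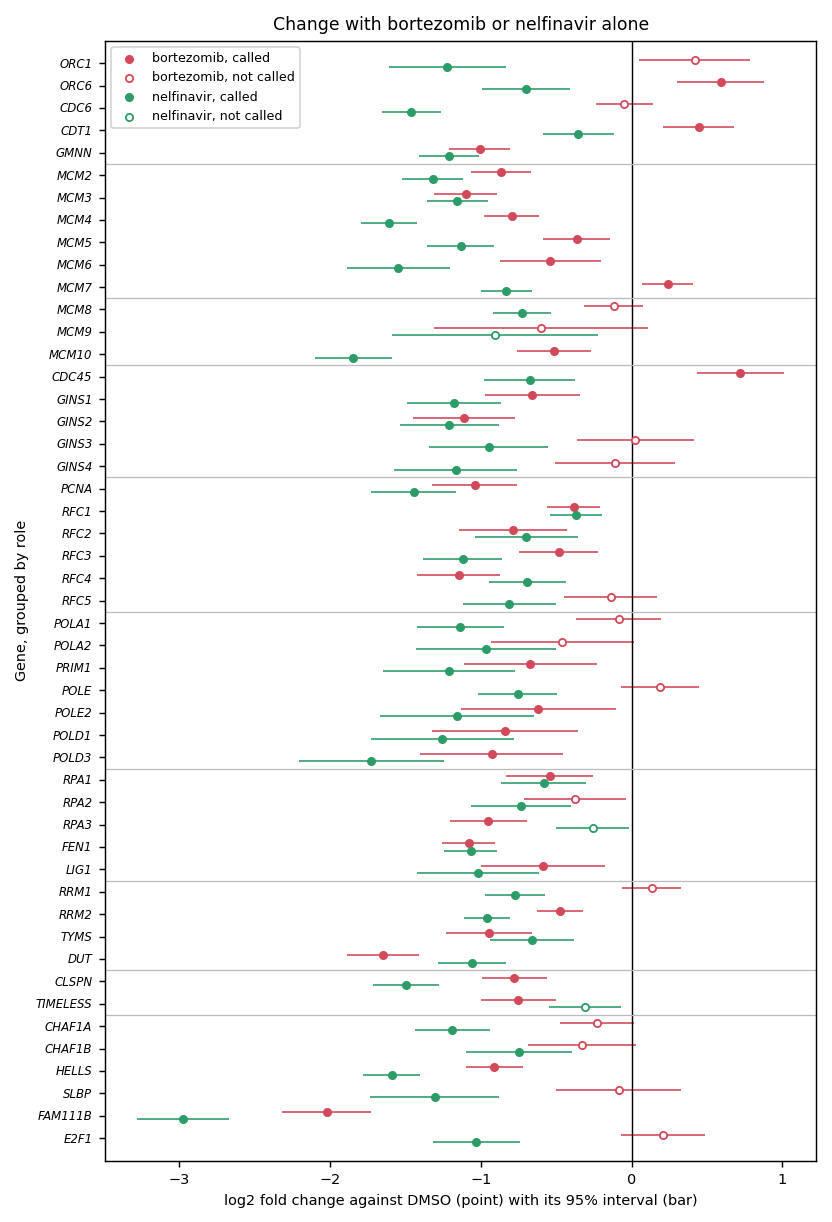
Log2 fold change of each of the 49 genes with bortezomib alone and with nelfinavir alone against DMSO (x axis), by role (y axis), with 95% intervals; filled points were called. All nelfinavir points lie below 0, and bortezomib points run from −2.02 for *FAM111B* to 0.72 for *CDC45*.

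Set directly against each other, bortezomib left most replication genes higher than nelfinavir did. Of the 49 genes, 29 were called higher with bortezomib than with nelfinavir and 4 lower, against 25.2% and 23.6% of all genes. The median difference was 0.61 on the log2 scale, and 11 genes were more than 2-fold higher. With library totals alone, which moved the median of all genes to −0.48, the median of the 49 genes was 0.13, and 19 were called higher and 11 lower, against 9.44% and 48.2% of all genes.

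By role, the median difference was 1.29 for the 5 licensing genes, 0.97 for CDC45 and GINS, 0.96 for chromatin and E2F and 0.79 for MCM2-7, with overlapping ranges, and the roles were not tested against each other. *CDC6* had the smallest p, with a difference of 1.41 (SE 0.101, adjusted p = 1.72e-13), and *ORC1* the largest difference, 1.64, with libraries at 21.2, 11.8, 14.2 and 17.7 CPM in bortezomib and 4.18, 6.07, 5.84 and 4.67 CPM in nelfinavir. *CDC45* (1.4), *MCM10* (1.33), *ORC6* (1.29), *E2F1* (1.24), *SLBP* (1.22), *MCM7* (1.07), *GINS4* (1.06), *POLA1* (1.05) and *MCM6* (1.01) were the others above 2-fold. *E2F1* libraries lay at 46.0, 44.6, 50.7 and 49.3 CPM with bortezomib and at 22.7, 20.6, 20.0 and 17.3 CPM with nelfinavir. In the opposite direction, *RPA3* (−0.69, adjusted p = 3.9e-05), *DUT* (−0.59, adjusted p = 0.000143), *RFC4* (−0.46) and *TIMELESS* (−0.44) were lower with bortezomib. For *DUT* the nelfinavir libraries held 82.5, 87.1, 73.3 and 70.4 CPM, all above the highest bortezomib library. The calls for *PCNA* (0.41) and *POLD3* (0.80) depended on which libraries were kept, *PCNA* being lost without nelfinavir replicate 1, 3 or 4 or bortezomib replicate 3 or 4 (adjusted p up to 0.123) and *POLD3* without bortezomib replicate 2 or 3 (up to 0.118).

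For other genes no difference between the agents passed the threshold. *FEN1* differed by −0.01 on the log2 scale (95% interval −0.19 to 0.17), *RFC1* by −0.02 (−0.19 to 0.16) and *MCM3* by 0.05 (−0.16 to 0.27) under TMM scaling, and with library totals alone each was called lower with bortezomib.

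With ISRIB alone, none of the 49 genes was called against DMSO. Of all 12685 genes 0% were called lower and 0% higher by edgeR, 703 had an unadjusted p under 0.05, and DESeq2 called 20 lower and 1 higher, with 0 of the 49 among them. Within the list 4 genes had an unadjusted p under 0.05, and the smallest adjusted p was 0.729, for *PRIM1*, the small primase subunit (log2 difference −0.56, 95% interval −0.98 to −0.14). For *CDC6* the ISRIB libraries held 66.7, 63.9, 66.8 and 72.8 CPM, and the difference from DMSO was −0.01 (−0.19 to 0.18). *FAM111B* likewise stood at 87.5, 85.3, 70.6 and 90.8 CPM, a difference of −0.12 (−0.38 to 0.15). Over the 49 genes the difference ran from −0.56 to 0.35 with a median of 0.04.

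When nelfinavir was added to bortezomib, the share of the genes that was called was near that of all genes. Compared with bortezomib alone, 10 of the 49 genes (20.4%) were called lower and 7 (14.3%) higher in the co-treated cells, against 13.4% and 15.6% of all genes. The median log2 fold change was −0.12, with −0.02 for all genes tested, and with upper-quartile factors or library totals alone 12 genes were called lower and 5 higher. Of all genes, 15.5% were then called lower and 13.4% higher with upper-quartile factors, and 14.7% and 13.3% with library totals alone. *CDC6* moved most clearly: its libraries held 126, 142, 132 and 121 CPM in the co-treatment, all above the highest bortezomib library (log2 fold change 0.99, SE 0.0955, adjusted p = 1.52e-09). The co-treated libraries of *CDC6* also lay above every DMSO and ISRIB library, the highest of which held 72.8 CPM. *CDT1* reached 62.4, 62.2, 70.5 and 48.4 CPM, the last below the highest bortezomib library (0.41, adjusted p = 0.0101), and *E2F1* stood at 68.1, 59.3, 59.1 and 66.3 CPM (0.41, adjusted p = 0.0309, and 0.0542 with library totals alone). The other genes called higher were *RFC4* (0.65), *FEN1* (0.48), *RFC1* (0.47) and *MCM7* (0.23). The call for *MCM7* was lost with library totals alone and without bortezomib replicate 3 or co-treatment replicate 3 or 4 (adjusted p up to 0.150).

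On the lower side of this comparison, *GINS1* and *GINS4* had the largest called changes. *GINS1* (ENSG00000101003, chr20:25371644-25433336) went from 20.1, 21.7, 25.3 and 25.5 CPM in bortezomib to 16.5, 12.7, 7.07 and 13.1 CPM in the co-treatment, without overlap (−0.91, SE 0.178, adjusted p = 0.000201). *GINS4* went from 9.41, 10.3, 11.4 and 14.7 CPM to 8.03, 5.22, 4.13 and 5.44 CPM (−1.0, adjusted p = 0.00108). *RPA3* (−0.53) and *RRM1*, the large subunit of ribonucleotide reductase (−0.41), also fell. The lower calls of *MCM6*, *TYMS*, *HELLS*, *PRIM1*, *RRM2* and *POLA2* depended on 1 library or more. *MCM6* was lost without bortezomib replicate 1 (adjusted p = 0.0559), *TYMS* without replicate 3 or 4 of either group (up to 0.137), *HELLS* without bortezomib replicate 2 or 3 or co-treatment replicate 1, 2 or 3 (up to 0.184), *PRIM1* without replicate 2, 3 or 4 of either group (up to 0.124), *POLA2* without bortezomib replicate 1, 2 or 4 or co-treatment replicate 1 or 2 (up to 0.204), and *RRM2* without any 1 of the 8 libraries (up to 0.282).

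**Figure D4:**
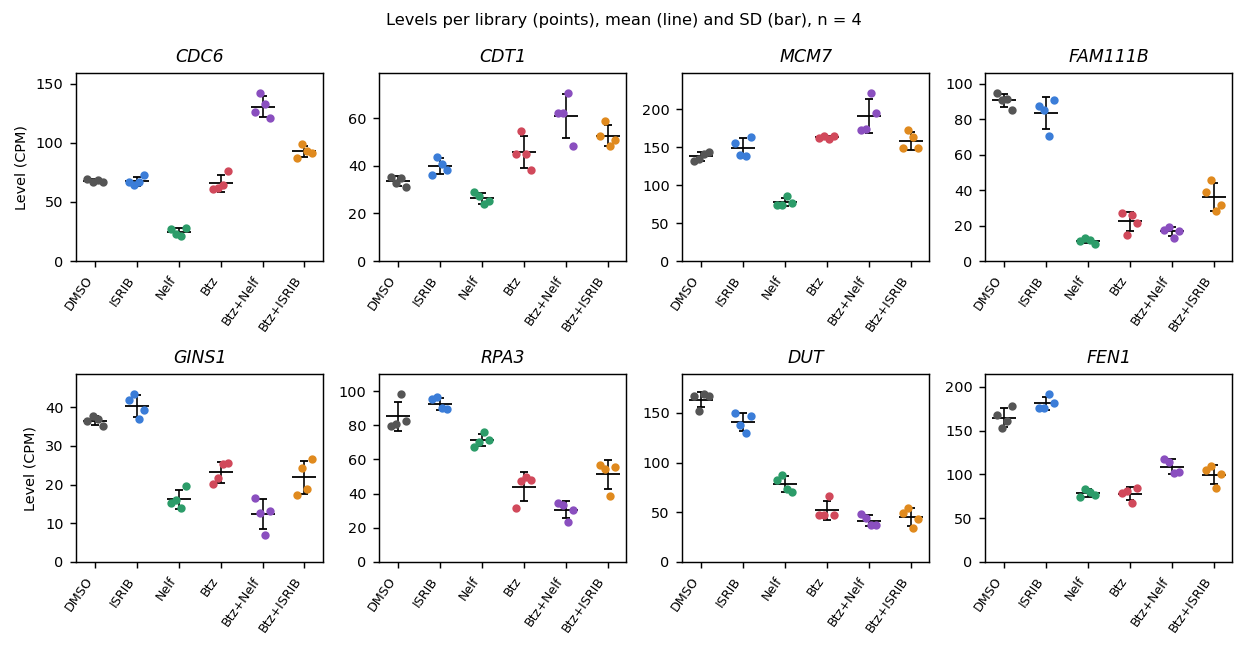
Level of 8 genes in each library (points; y axis in CPM from 0), by treatment, with mean and SD (n = 4). *CDC6* is lowest with nelfinavir alone (21 to 27.5 CPM) and highest with bortezomib and nelfinavir together (121 to 142 CPM), while *RPA3* is lowest in that co-treatment (23.4 to 34.7 CPM).

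Seen from the other side, adding bortezomib to nelfinavir raised many of the genes that nelfinavir alone had left low. Compared with nelfinavir, 28 of the 49 genes were called higher in the co-treated cells and 4 lower, against 28.7% and 28.4% of all genes, with a median of 0.47. All 5 licensing genes and all 6 genes for chromatin and E2F were among those called higher under TMM scaling, with *GMNN*, *HELLS* and *CHAF1B* turning below 0 with library totals alone, and the largest changes of the 28 were those of *CDC6* (2.4, adjusted p = 1.38e-19), *E2F1* (1.65), *ORC1* (1.41), *GINS3* (1.39), *ORC6* (1.31) and *MCM7* (1.30). *RPA3* (−1.22), *DUT* (−0.91), *TYMS* (−0.74) and *TIMELESS* (−0.31) were called lower, the last of them not without nelfinavir replicate 1 or 3 or co-treatment replicate 1 or 2 (adjusted p up to 0.176). The call for *CHAF1B* (0.50) was also lost without nelfinavir replicate 2 or co-treatment replicate 3 or 4. With library totals alone, which moved the median of all genes to −0.55, 12 of the 49 genes were called higher and 14 lower, against 12.5% and 51.4% of all genes, and *CDC6* and *E2F1* were among the 12.

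The difference between nelfinavir's effect with and without bortezomib was tested as an interaction, which subtracts the change that nelfinavir made in cells without bortezomib from the change it made in cells with it. Of the 49 genes, 34 were called above 0 and 0 below, against 9.74% of all genes above and 10% below. The 0 is also the number below 0 at an unadjusted p under 0.05 and with DESeq2. The estimate was above 0 for 48 of the 49 genes, with a median of 0.88 and −0.02 for all genes tested, and it exceeded 2-fold for 22 of them. These counts stayed at 34 and 0 with library totals alone, as a shift shared by all bortezomib libraries cancels in this contrast.

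*CDC6* had the smallest interaction p of the list and the third smallest of all genes above 0, with an estimate of 2.45 (SE 0.138, adjusted p = 3.69e-15). Nelfinavir lowered its mRNA to 36.3% of DMSO when given alone, and with bortezomib the level rose to 198% of that in bortezomib. *FAM111B* had the largest estimate, 2.56 (adjusted p = 2.84e-10), and unlike *CDC6* it did not rise in the co-treatment, whose libraries held 17.8, 19.3, 13.2 and 17.1 CPM and overlapped those of bortezomib. *MCM4* (1.84), *MCM10* (1.72), *POLD1* (1.61), *FEN1* (1.55), *E2F1* (1.44), *MCM2* (1.4) and *GMNN* (1.39) followed in size. All 5 licensing genes, all 6 MCM2-7 genes and all 6 chromatin and E2F genes tested were called. Only 1 of 5 genes for RPA, FEN1 and LIG1 was (*FEN1*), and *RPA3* was the sole gene with an estimate below 0 (−0.27, 95% interval −0.64 to 0.09, adjusted p = 0.32). *CDC45* (0.52), *RRM1* (0.36) and *GINS4* (0.16) were not called. The call for *POLE* (0.56, adjusted p = 0.0366) was the least stable, being lost without any 1 of 9 libraries (adjusted p up to 0.0837). These were DMSO replicates 1, 2 and 3, nelfinavir replicates 1, 2 and 4, bortezomib replicates 1 and 4 and co-treatment replicate 4. The calls for *CHAF1B* (without nelfinavir replicate 2, adjusted p = 0.0518), *POLD3* (without co-treatment replicate 4, 0.0911) and *RFC2* (without co-treatment replicate 3, 0.0611) each rested on 1 library.

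**Figure D5:**
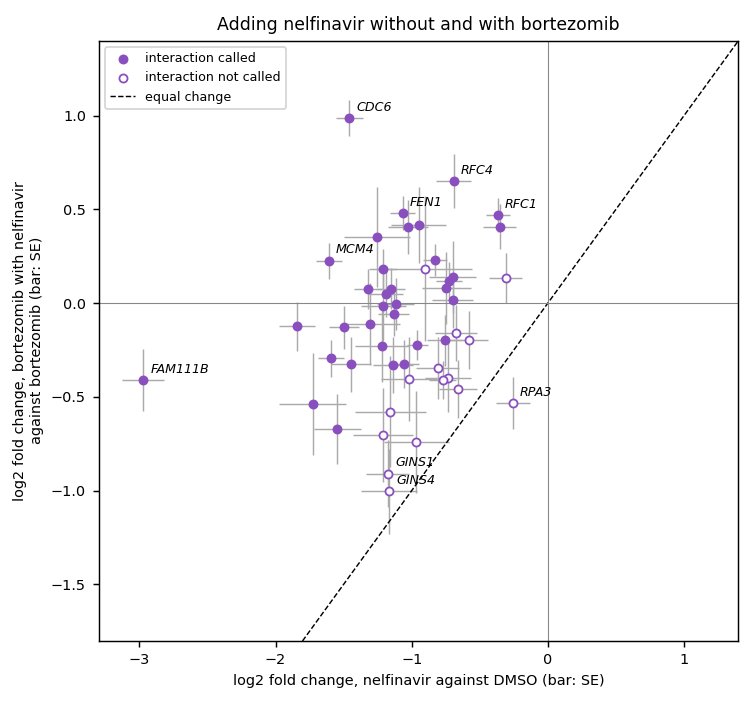
Log2 fold change on adding nelfinavir without bortezomib (x axis) and with it (y axis) for the 49 genes, with SE bars; filled points have a called interaction and the dashed line marks equal change. All points except *RPA3* lie above the line, and *CDC6* sits at −1.46 and 0.99.

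When ISRIB was added to bortezomib, the share of the genes that was called was close to that of all genes. Compared with bortezomib alone 3 of the 49 (6.12%) were called lower and 3 (6.12%) higher, against 5.34% and 6.91% of all genes, and the median log2 fold change was 0.04. *CDC6* rose to 87.3, 99.1, 93.1 and 91.3 CPM, above every bortezomib library (0.50, SE 0.0964, adjusted p = 0.000544). *FAM111B* rose to 39.0, 45.7, 28.4 and 31.3 CPM, also above every bortezomib library and below every DMSO library (0.70, adjusted p = 0.00259). *FEN1* rose by 0.35 on the log2 scale, a call that was lost in a model of these 2 groups only (adjusted p = 0.0643). *ORC6*, which bortezomib had raised under TMM scaling, fell to 48.5, 53.8, 41.9 and 47.4 CPM (−0.46, adjusted p = 0.0394), but the call was lost without bortezomib replicate 2 or 3 or co-treatment replicate 1, 3 or 4 (adjusted p up to 0.132). *RFC5* (−0.60) was lost without bortezomib replicate 3 or 4 (up to 0.0865) and *MCM6* (−0.62) without bortezomib replicate 1 or co-treatment replicate 4 (up to 0.107).

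In the interaction of ISRIB with bortezomib 2 of the 49 genes were called above 0 and 0 below, against 2.93% and 1.89% of all genes. In either direction 13 of the 49 had an unadjusted p under 0.05, against 2317 of all 12685 genes. DESeq2 called 3 above 0 and 1 below (*RFC5*), against 3.84% and 3.44% of all genes. The called genes were *FAM111B* (0.81, adjusted p = 0.0164) and *CDC6* (0.50, adjusted p = 0.0222). The call for *FAM111B* was lost without co-treatment replicate 2 (adjusted p = 0.0525), and that for *CDC6* without ISRIB replicate 2, bortezomib replicate 1 or co-treatment replicate 2 (up to 0.0551) and without a filter on low counts (0.0662).

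Other genes of the pathway, taken from lists written from general knowledge, were read from the same fit. They were read under TMM scaling only. With library totals alone the median of all genes moved to −0.50 with bortezomib against DMSO, and the effect on these lists was not tested. Of 34 further replication genes, 23 (67.6%) were called lower and 0 higher with nelfinavir, against 8.84% and 10.4% of all genes. With bortezomib 16 (47.1%) were called lower and 3 (8.82%) higher, against 25.8% and 27.6% of all genes. *DTL*, which encodes the receptor of the ubiquitin ligase that destroys CDT1 in S phase, went from 35.7 to 8.38 CPM with nelfinavir (−2.09, adjusted p = 5.49e-13), while *TOP2A*, encoding topoisomerase II alpha, went from 1482 to 511 CPM with bortezomib (−1.54, adjusted p = 9.4e-16). *TOP1* (0.71), *ORC3* (0.77) and *ORC4* (0.54) were the 3 called higher with bortezomib. In the nelfinavir by bortezomib interaction 13 of the 34 genes (38.2%) were called above 0 and 2 (5.88%) below, against 9.74% and 10% of all genes, and *ATAD2* (1.59) and *DTL* (2.43) had the smallest p of the 13.

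Of 26 tested genes for E2F factors, pocket proteins and G1 regulators, 15 (57.7%) were called lower and 1 (3.85%) higher with nelfinavir, against 8.84% and 10.4% of all genes. With bortezomib 11 (42.3%) were called lower and 7 (26.9%) higher, the latter close to the 27.6% of all genes called higher, while 25.8% of all genes were called lower. *SKP2*, the substrate receptor for the CDK inhibitor p27, fell by 1.37 with nelfinavir and by 2.82 with bortezomib on the log2 scale. Bortezomib also lowered *CCND1*, encoding cyclin D1 (−1.87), and of the 7 higher genes those with the smallest p were *CDK4* (1.14), *E2F6*, a repressive member of the E2F family (1.14), and *CDKN1A*, encoding the CDK inhibitor p21 (0.94). In the nelfinavir by bortezomib interaction 14 of the 26 (53.8%) were called above 0 and 2 (7.69%) below, against 9.74% and 10% of all genes, with *CDC25A* (1.79), *SKP2* (1.97) and *CCND1* (1.99) among the 14. *CCNE1*, encoding cyclin E1, stood at 36.9 CPM with bortezomib and 13.9 CPM with nelfinavir (1.4, adjusted p = 7.37e-10).

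Of 25 mitosis genes, 17 (68.0%) were called lower and 0 higher with nelfinavir, against 8.84% and 10.4% of all genes, and 21 (84.0%) lower and 0 higher with bortezomib, against 25.8% and 27.6%. Set directly against nelfinavir, 11 (44%) were called lower with bortezomib and 3 (12%) higher, against 23.6% and 25.2% of all genes. *BIRC5*, encoding survivin (−1.37), *CDC20* (−1.25) and *KIF20A*, a kinesin of cytokinesis (−2.0), were among the genes lowered by bortezomib. In the nelfinavir by bortezomib interaction 1 was called above 0 (*ANLN*, 0.77) and 1 below (*CCNB1*, −0.48), each 4% of the list, against 9.74% and 10% of all genes. With ISRIB added to bortezomib, 10 of the 25 (40.0%) were called lower and 0 higher, against 5.34% and 6.91% of all genes, with *CCNB1* at −0.66 and *CCNB2* at −0.68.

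Some counts may be shared between neighbouring genes. Within the last 1000 bases *GINS2* overlaps *GSE1* and *TYMS* overlaps *ENOSF1* on the opposite strand, and *PRIM1* overlaps *NACA* and *FEN1* overlaps *FADS2* on the same strand. The sources used here do not state the strand setting of the counting, and the values of these 4 genes carry that uncertainty. The 3′ ends of *PRIM1* and *POLD1* match another gene model at 100% identity (345 and 327 bases). Neither of these models has a row under its name in the count table, and an effect of the matches on the values was not tested.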

How the data were processed

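Total RNA of HepG2 cells was made into 3′ end libraries by the authors (QuantSeq FWD kit, single-end reads of 80 bp). They trimmed reads with cutadapt 2.8 and used STAR and hg19 within an nf-core workflow. The deposited values are raw read counts per gene, with gene models of 3 biotypes (protein-coding, lincRNA, antisense) from Ensembl GRCh37. Which program counted, whether by strand and whether by molecular identifier, is not given in the sources used here. Counts may therefore hold PCR copies.

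All 24 libraries in 6 groups of 4 entered 1 model of group means in edgeR 4.0.16 (R 4.3.3, limma 3.58.1). Low genes were removed by filterByExpr with a minimum count of 5 and a minimum total of 25. Libraries were scaled with TMM factors (0.786 to 1.24) and genes tested with the quasi-likelihood F-test, with Benjamini-Hochberg adjustment over 12685 genes and calls at an adjusted p under 0.05. An SE is the absolute log2 fold change over the square root of F, and intervals are 1.96 SE to either side. DESeq2 1.42.0 and the other settings in the closing section were alternatives. The test was checked on simulated counts. The 3 DMSO comparisons share the DMSO libraries, and the co-treatment comparisons share the bortezomib libraries.

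The members and the lists of other genes were chosen with earlier results of these data known. All 49 genes could be named. Full statistics were given to those with the smallest p in either direction of a comparison and to those whose direction differs from their role group, and from the other lists at most 4 called genes of smallest p per direction and comparison were named. Replicate numbers were not treated as pairs in the main model. After removal of group means a correlation above 0.1 was seen in 21 of 60 same-numbered pairs and in 43 of 180 others. The median correlation was 0.056 in same-numbered pairs and −0.022 in the others. A fit with the replicate block is given in the closing section. No replicates were closer than sampling noise (lowest chi-square per degree of freedom 2.14). Groups of 4 libraries carry the spread between biological replicates of 1 line. Gene positions are from GENCODE models on GRCh37, promoters from RefSeq on GRCh38.p14. Near copies were sought with BLAST 2.17.0 over the last 500 bases (at least 80 bases, 97% identity), and tables were handled in Python 3.11.15 with pandas 2.3.3. *UHRF1* was not analysed here.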

Additional observations from a re-analysis of the deposited data

Results flagged for a closer look

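Single libraries stood apart from the other 3 of their group, by Dixon's test for groups of 4, in 20 of 294 combinations of gene and group (6.8%), and chance flags about 1 in 20. In bortezomib with ISRIB, replicate 3 stood apart for *GINS2* (12.2 CPM), *GINS4* (7.58 CPM), *RPA3* (38.3 CPM), *CHAF1A* (79.0 CPM) and *HELLS* (125 CPM). In bortezomib, replicate 4 stood apart for *MCM9* (5.83 CPM) and *MCM10* (38.7 CPM), replicate 1 for *RPA3* (31.4 CPM) and replicate 3 for *DUT* (66.5 CPM). In DMSO, replicate 2 stood apart for *GINS3* (10.3 CPM) and *DUT* (152 CPM), and replicate 3 for *RPA3* (98.1 CPM) and *SLBP* (35.8 CPM). In nelfinavir, replicate 2 stood apart for *PCNA* (99.9 CPM), replicate 3 for *POLD1* (1.95 CPM) and replicate 4 for *LIG1* (10.6 CPM). In ISRIB, replicate 2 stood apart for *POLD1* (4.99 CPM) and replicate 3 for *LIG1* (42.6 CPM) and *RRM1* (343 CPM), and in bortezomib with nelfinavir replicate 4 stood apart for *POLD3* (11.8 CPM).

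The change on adding nelfinavir differed with and without bortezomib for 34 genes by the interaction test in edgeR. The 10 with the smallest p were *CDC6* (2.45), *MCM4* (1.84), *FEN1* (1.55), *FAM111B* (2.56), *MCM2* (1.4), *GMNN* (1.39), *HELLS* (1.30), *MCM10* (1.72), *MCM7* (1.06) and *CLSPN* (1.37), all on the log2 scale. The change on adding ISRIB differed in the same way for 2 genes, *FAM111B* (0.81) and *CDC6* (0.50).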

How the results depend on the processing

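Library totals alone, which shift all genes in comparisons between libraries with and without bortezomib, moved the results most. With them 44 genes were called lower and 0 higher with bortezomib, 11 lower and 19 higher with bortezomib against nelfinavir, and 14 lower and 12 higher with the nelfinavir co-treatment against nelfinavir. They reversed *CDT1* (−0.051), *MCM7* (−0.26), *GINS3* (−0.47), *POLE* (−0.31) and *RRM1* (−0.36) with bortezomib against DMSO, *GMNN* (−0.27), *MCM2* (−0.020), *MCM3* (−0.42), *PCNA* (−0.069) and *RPA1* (−0.43) against nelfinavir, and *GMNN* (−0.12), *MCM3* (−0.38), *GINS2* (−0.43), *PCNA* (−0.43), *RFC1* (−0.055), *RFC2* (−0.46), *FEN1* (−0.040), *RRM1* (−0.0098), *RRM2* (−0.25), *CHAF1B* (−0.0079) and *HELLS* (−0.12) in the nelfinavir co-treatment against nelfinavir. Reversed here means that the sign turned and the call changed. Turns of sign in genes called in neither fit were not counted. No other setting reversed a gene in this sense.

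A minimum change of 1.5-fold left 2 genes higher with bortezomib, 2 lower with bortezomib against nelfinavir, 5 lower and 2 higher with nelfinavir added to bortezomib, 1 higher with ISRIB added and 1 above 0 in the ISRIB interaction. Of all 12685 genes, 2440 were then called higher with bortezomib. For the other comparisons the number of all genes past 1.5-fold is not given here. Those counts therefore do not set the list apart from all genes. A model of only the groups compared left 5 lower with nelfinavir added and 1 lower with ISRIB added, against 8.56% and 3.15% of all genes. Without a filter on low counts 1 gene was above 0 in the ISRIB interaction (2.19% of all genes), and DESeq2 called 1 below 0 (3.44% of all genes). Leaving out each library in turn gave 6 to 9 genes lower with nelfinavir added to bortezomib (6 without replicate 3 of either group). The share of all genes was then 9.09% to 11.3%. With ISRIB added 1 to 3 were lower (1 without bortezomib replicate 3 or co-treatment replicate 4), against 4.3% to 5.27% of all genes. In the ISRIB interaction 0 to 3 were above 0 (0 without co-treatment replicate 2) and 0 to 1 below. Of all genes 2.12% to 3.15% were above and 1.27% to 2.28% below. The cause of these changes was not tested. With the replicate block, 30 genes were called lower and 4 higher with bortezomib, against 26.1% and 27.7% of all genes. For nelfinavir the counts were 48 and 0, against 9.48% and 10.7% of all genes. In the nelfinavir interaction 34 were above 0, against 10.2% of all genes, and no call was lost. An E2F word stood in 31.0% of the genes' promoters and 1.82% of all promoters in windows of 150 bases before the start. The lowest depth was that of *MCM9*, *POLD1* and *POLE2*, with 601, 691 and 1128 counts over the 24 libraries.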

Other observations

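The promoters also differed in words outside the E2F type. CCAAT stood on either strand in 61.9% of 42 promoters of the replication and E2F genes, in 80.0% of 20 promoters of the mitosis genes and in 35.7% of all 27305 promoters. TTTGAA, the core of the cell cycle homology region of late cell cycle genes, stood in 2.38% of the replication and E2F promoters, in 70.0% of the mitosis promoters and in 15.4% of all. These are counts of letters in windows of 300 bases, without a test.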
